A study of Rattus norvegicus with 27 samples.

Results

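The 10 circadian clock genes Arntl, Clock, Npas2, Per1, Per2, Per3, Nr1d1, Dbp, Cry1 and Cry2 were followed in the cerebellar interpositus of adult rats. They were taken from the deposited count table by their symbols and make up 10 of its 17321 genes. Messenger RNA had been sequenced from punches of this deep cerebellar nucleus in 27 Long-Evans rats aged 70 days. The normally reared animals (no treatment, NT) comprised 5 females and 7 males. The limited bedding (LB) animals comprised 7 females and 8 males, whose dams had been given little nesting material from postnatal day 2 to day 9 as an early-life stressor. Pups of both rearings had been fostered between dams at the start of this period into litters balanced for sex. All animals were anesthetized with isoflurane and decapitated in a morning window of the light phase. The time at which each animal was killed is not given in the sources used here, so the relations described are between levels in different animals and not a time course.

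The circadian clock is a feedback loop of transcription and translation. The proteins of Arntl (also called Bmal1) and Clock, or of Arntl and Npas2, bind E-box sequences and activate the Per and Cry genes, whose proteins in turn inhibit that activation. The same activators switch on Nr1d1, which encodes REV-ERB alpha, a repressor of Arntl, and Dbp, which encodes an activator that binds D-box sequences. In rodent tissues with a running clock, Arntl and Npas2 transcripts therefore peak at about the opposite time of day to those of Nr1d1 and Dbp, with Per and Cry transcripts following. Clock itself varies little over the day in many tissues.

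Promoter windows of 300 bases, running from 250 bases before a transcription start to 50 bases after it, were read from RefSeq on the rat assembly GRCr8. Entries existed for 9 of the 10 genes (not for Cry1), in 11 windows, and Arntl is listed there as Bmal1. The windows were searched on both strands for the E-box CACGTG, the E-box variant CACGTT, the D-box TTATGTAA or TTACGTAA, and the element TAGGTCA or TGGGTCA that ROR and REV-ERB proteins bind. The 4 windows printed hold a motif of the feedback loop, and the window of Dbp, whose transcript ran most clearly against Arntl, is shown beside them. Capitals mark the matched letters, each sequence runs 5′ to 3′ on the strand of its gene, and a match on the opposite strand reads as its reverse complement.
Arntl (Bmal1), chr1:176766078-176766377, plus strand: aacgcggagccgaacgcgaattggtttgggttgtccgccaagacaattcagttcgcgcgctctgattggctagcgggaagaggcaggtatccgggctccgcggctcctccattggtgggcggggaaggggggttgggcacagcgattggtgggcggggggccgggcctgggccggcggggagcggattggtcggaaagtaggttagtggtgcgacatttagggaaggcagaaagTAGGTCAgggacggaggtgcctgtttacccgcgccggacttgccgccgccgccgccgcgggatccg
Nr1d1, chr10:84229405-84229704, minus strand: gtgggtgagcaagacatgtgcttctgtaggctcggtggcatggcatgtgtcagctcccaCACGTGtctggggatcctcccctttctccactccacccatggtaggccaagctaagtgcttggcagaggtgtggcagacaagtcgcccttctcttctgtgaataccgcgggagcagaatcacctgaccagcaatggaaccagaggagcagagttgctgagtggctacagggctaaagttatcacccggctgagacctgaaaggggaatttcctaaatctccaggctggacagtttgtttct
Per2, chr9:99496944-99497243, minus strand: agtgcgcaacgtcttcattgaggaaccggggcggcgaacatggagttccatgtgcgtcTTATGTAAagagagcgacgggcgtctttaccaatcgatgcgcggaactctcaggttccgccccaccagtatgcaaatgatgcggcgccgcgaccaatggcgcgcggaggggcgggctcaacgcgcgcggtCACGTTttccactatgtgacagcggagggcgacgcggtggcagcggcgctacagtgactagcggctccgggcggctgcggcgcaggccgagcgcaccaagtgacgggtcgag
Cry2, chr3:98860388-98860687, minus strand: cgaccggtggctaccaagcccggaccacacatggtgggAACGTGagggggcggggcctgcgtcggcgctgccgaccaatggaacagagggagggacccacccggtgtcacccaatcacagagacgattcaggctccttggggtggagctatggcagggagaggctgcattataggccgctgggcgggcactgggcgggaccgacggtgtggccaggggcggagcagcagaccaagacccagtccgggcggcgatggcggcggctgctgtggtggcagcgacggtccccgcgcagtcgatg
Dbp, chr1:105312006-105312305, plus strand: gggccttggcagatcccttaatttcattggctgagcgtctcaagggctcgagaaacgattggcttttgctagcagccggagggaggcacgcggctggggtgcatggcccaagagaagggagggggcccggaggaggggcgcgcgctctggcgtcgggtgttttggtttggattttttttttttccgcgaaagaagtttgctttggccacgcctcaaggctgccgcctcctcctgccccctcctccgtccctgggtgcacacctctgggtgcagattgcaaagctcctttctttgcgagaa

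The Arntl window held TAGGTCA with its first base at position -16 from the start. This element or its TGGGTCA form occurred in 6.60% of the 33469 promoter windows of the same length. The Nr1d1 window printed held CACGTG at position -191, a motif found in 6.42% of windows, and a further Nr1d1 window (chr10:84231763-84232062, minus strand) held CACGTT on the opposite strand at position -174. The Per2 window held TTATGTAA at position -192, in a class of motif found in 1.01% of windows, and CACGTT at position -62. The Cry2 window held CACGTT on the opposite strand at position -212, a motif found in 4.83% of windows. None of these letters occurred in the windows of Dbp, Clock, Npas2, Per1 or Per3, which describes these windows only.

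All 10 clock genes were measured in every animal, with at least 104 counts each, and all 10 passed the filter on low counts that left 12107 genes for testing. Total counts per animal ran from 11836684 to 24169170. The counts were scaled to CPM (counts relative to the normalized library size) for comparing 1 gene between animals. They were also converted to TPM, a scale that divides by exon length, for comparing levels between genes. On the TPM scale the output gene Dbp was the most abundant clock transcript, with a median of 158 TPM over the 27 animals. Nr1d1 followed with a median of 123 TPM, and Cry2 with 62.8 TPM. Dbp exceeded Nr1d1 in 23 of 27 animals, and Nr1d1 exceeded Cry2 in all 27.

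Of the activators, Arntl had a median of 32.4 TPM and Clock of 24.6 TPM, while Npas2, the partner of Arntl that is mainly known from the forebrain, was the lowest of all at 4.62 TPM. The remaining inhibitors lay close together, with medians of 27.4 TPM for Per1, 24.4 TPM for Per3, 23.5 TPM for Cry1 and 16.3 TPM for Per2. In this stretch of the order the neighbors were not separated, since Per1 exceeded Clock in 16 of 27 animals, Clock exceeded Per3 in 10 and Per3 exceeded Cry1 in 14. Cry1 exceeded Per2 in all 27 animals, and Per2 exceeded Npas2 in 23.

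The clock genes also differed in how far they varied between animals of the same group. The SD of log2(CPM + 0.5) within groups placed Cry2 at the 22nd percentile of all tested genes and Arntl at the 24.9th. Npas2 stood at the 96.2nd percentile and Clock at the 81.4th. The highest animal exceeded the lowest 8.46-fold for Npas2 and 7.47-fold for Clock on the TPM scale, against 2.59-fold for Dbp and 2.88-fold for Arntl.

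**Figure D1:**
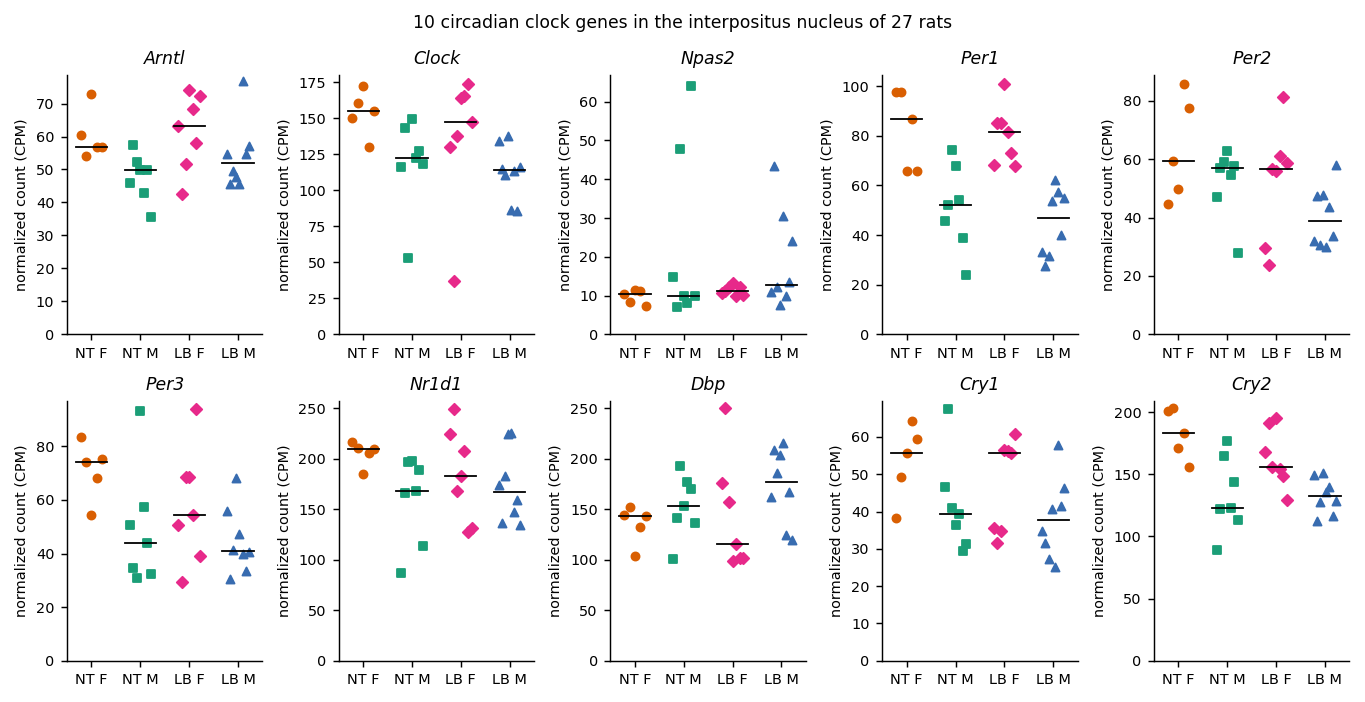
Normalized CPM of the 10 clock genes in each animal, with 1 panel per gene, the 4 groups on the horizontal axis, 1 point per animal and a black line at the group median. The 8 LB males lie below all 7 LB females for Per1, and 5 males stand far above the other animals for Npas2.

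The Per genes encode the rhythmic inhibitors of the clock, and Per1 had the smallest adjusted p of the 10 genes between the sexes over all animals and in LB animals. In NT females Per1 was measured at 97.6, 97.7, 65.9, 86.8 and 65.9 CPM. In NT males it ranged from 23.7 to 74.1 CPM with a median of 52.0. Of the 7 NT males, 5 lay below every NT female. In LB females Per1 ranged from 67.9 to 100.8 CPM with a median of 81.7, and in LB males from 27.5 to 62.3 CPM with a median of 47.0. The groups did not overlap in the LB animals, where 8 of 8 males lay below every female. Over all genes, 0.273% separated the LB sexes in this way in either direction and 0.0909% with the males lower. No clock gene separated the NT sexes fully, where 7.24% of all genes did and 3.62% with the males lower. Per1 was 51.0 ± 17.1 CPM in NT males against 82.8 ± 16.02 in NT females (SD, n = 7 and 5) and 45.1 ± 13.5 in LB males against 80.3 ± 11.7 in LB females (SD, n = 8 and 7). The edgeR quasi-likelihood test gave a log2 fold change of -0.76 ± 0.15 (SE, adjusted p = 0.00153) for all males against all females. In NT animals it was -0.70 ± 0.22 (edgeR, adjusted p = 0.0345) and in LB animals -0.83 ± 0.20 (edgeR, adjusted p = 0.0630), which missed the threshold of 0.05. The sex difference was not shown to differ between rearings (interaction log2 -0.13 ± 0.30, edgeR, adjusted p = 1.00).

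Cry2, which encodes a partner of the PER proteins in inhibiting the activators, was also lower in males. In NT females it was measured at 200.6, 203, 171, 183 and 156 CPM. NT males ranged from 89.1 to 177 CPM with a median of 123, and 5 of these 7 males lay below every NT female. In LB animals the sexes overlapped, with 130 to 195 CPM in females (median 156) and 113 to 151 CPM in males (median 132). The log2 fold change for males against females was -0.38 ± 0.09 over all animals (edgeR, adjusted p = 0.00416) and -0.46 ± 0.14 in NT animals (edgeR, adjusted p = 0.0270). In LB animals it was -0.30 ± 0.12 (edgeR, adjusted p = 0.200).

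Over all animals, 5 of the 10 clock genes passed the edgeR threshold between the sexes, where 29.3% of all tested genes passed (12.4% lower in males and 16.9% higher). Per1, Cry2, Arntl and Per3 fell in males and Npas2 rose. Of the 10 estimates, 8 below 0, with a median log2 fold change of -0.33 against 0.02 over all tested genes. In NT animals, Per1 and Cry2 fell in males, 2 of 10 where 15.2% of all genes passed (5.08% lower and 10.1% higher). Both calls were lost with only the groups compared, and with the title set as a random block in limma-voom, where 0.0165% of all genes passed. In LB animals 0 of 10 passed by edgeR where 0.248% of all genes did (0.0413% lower and 0.206% higher). Per1 and Cry2 were the 2 clock genes at an unadjusted p under 0.05 there, as were 17% of all genes, DESeq2 called Per1 alone (adjusted p = 0.00763) and limma-voom called 0.

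Arntl, the activator shared by both heterodimers, was 60.4, 54.0, 72.8, 56.7 and 56.9 CPM in the 5 NT females and 35.7 to 57.5 CPM (median 49.9) in NT males. In LB animals it ran from 42.5 to 74.0 CPM in females (median 63.0) and from 45.6 to 76.7 CPM in males (median 52.1). Of the 7 NT males, 6 lay below every NT female, while over all animals the sexes overlapped and 1 of 15 males lay below every female. The log2 fold change over all animals was -0.26 ± 0.09 (edgeR, adjusted p = 0.0405), and the call was lost when any of 15 animals was left out singly.

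Per3, a further Per gene, was 83.6, 74.2, 54.2, 68.0 and 75.3 CPM in NT females and 31.0 to 93.1 CPM in NT males, with a median of 44.0. In LB animals it ran from 29.5 to 93.7 CPM in females (median 54.4) and from 30.4 to 68.0 CPM in males (median 41.0). Over all animals no male lay below every female. Of the 7 NT males, 5 lay below every NT female and 1 above. The difference of -0.45 ± 0.17 on the log2 scale over all animals passed narrowly (edgeR, adjusted p = 0.0485) and kept its call in 6 of the 27 fits that left out 1 animal.

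The other clock genes did not pass in either comparison of the sexes within a rearing or over all animals. Over all animals their log2 fold changes for males against females were -0.33 ± 0.16 for Clock, -0.33 ± 0.16 for Per2, -0.33 ± 0.14 for Cry1, -0.23 ± 0.13 for Nr1d1 and 0.23 ± 0.14 for Dbp (SE, edgeR adjusted p from 0.0790 to 0.209). Dbp was the only gene of this set with a higher estimate in males, at 153 ± 30.7 CPM in NT males against 135 ± 19.2 in NT females (SD, n = 7 and 5). Clock was unusually low in LB female 5022, at 37.0 CPM, and NT male 3113, at 52.9 CPM. Without LB female 5022 alone 9 of the 10 genes passed over all animals, where 42.4% of all genes did. Without NT male 3113 alone 4 of the 10 passed, where 28.1% of all genes did. Without both 9 of the 10 genes passed over all animals, all but Nr1d1, where 42% of all genes passed. In LB animals, Clock (log2 -0.44), Per1 (-0.82) and Dbp (0.47) then passed, where 15.3% of all genes did (edgeR, adjusted p from 0.0157 to 0.0463).

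**Figure D2:**
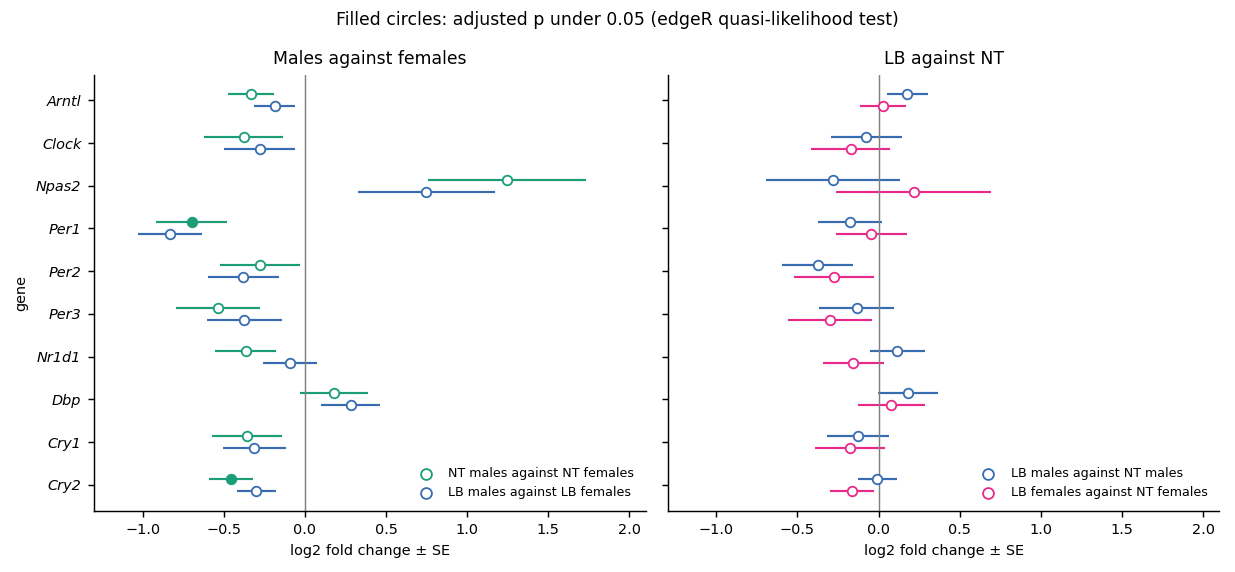
Log2 fold change with its standard error (bars) for each clock gene from the edgeR fit, with males against females in NT and in LB animals on the left and LB against NT animals in males and in females on the right. Filled points passed an adjusted p of 0.05, which were Per1 and Cry2 for the sexes in NT animals and none for rearing.

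Npas2 stood apart from this pattern. It was 10.3, 8.40, 11.4, 11.3 and 7.32 CPM in NT females, and 9.996 to 13.1 CPM (median 11.1) in LB females. In NT males it ranged from 7.16 to 64.1 CPM with a median of 10.02, and in LB males from 7.69 to 43.3 CPM with a median of 12.9. The high values came from 5 males, LB males 122, 7122 and 9123 and NT males 3113 and 6111, which lay between 24.1 and 64.1 CPM, while the other 22 animals lay between 7.16 and 14.8 CPM. The log2 fold change for all males against all females was 1.00 ± 0.32 (edgeR, adjusted p = 0.0230).

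The same 5 males carried RNA of genes that are abundant in the forebrain. Cck, a neuropeptide gene of cortical neurons, was 169.8 to 405 CPM in these 5 animals and at most 62.1 CPM in the others. Bcl11b, a transcription factor of deep cortical projection neurons, was 4.69 to 50.7 CPM in them and 0.107 to 12.4 CPM elsewhere, so that this marker overlapped. Rasgrf2 overlapped too, at 5.78 to 23.3 CPM in them and 0.0678 to 8.00 CPM elsewhere. Tbr1 did not, at 18.5 to 163 CPM in them and 1.05 to 9.82 CPM elsewhere. The summed level of 4 forebrain markers (Cck, Bcl11b, Rasgrf2 and Tbr1) was 203 to 549 CPM in the 5 males and 2.08 to 76.6 CPM in the other 22 animals. Tbr1 is also expressed by deep cerebellar nucleus neurons. This list and the division at a summed level of 100 CPM were chosen after the values were seen.

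Without the 5 males, mean Npas2 was 9.74 ± 1.80 CPM in NT females (n = 5), 9.97 ± 2.98 in NT males (n = 5), 11.3 ± 1.19 in LB females (n = 7) and 10.9 ± 2.24 in LB males (SD, n = 5). The log2 fold change of Npas2 between the sexes was then -0.02 (edgeR). The 5 males left out held the 5 highest Npas2 values, so this fit cannot test the sex difference in Npas2. Per1 and Cry2 kept their calls without these animals, at -0.82 (adjusted p = 0.00467) and -0.40 (edgeR, adjusted p = 0.0128). Arntl (adjusted p = 0.127) and Per3 (edgeR, adjusted p = 0.232) did not.

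**Figure D3:**
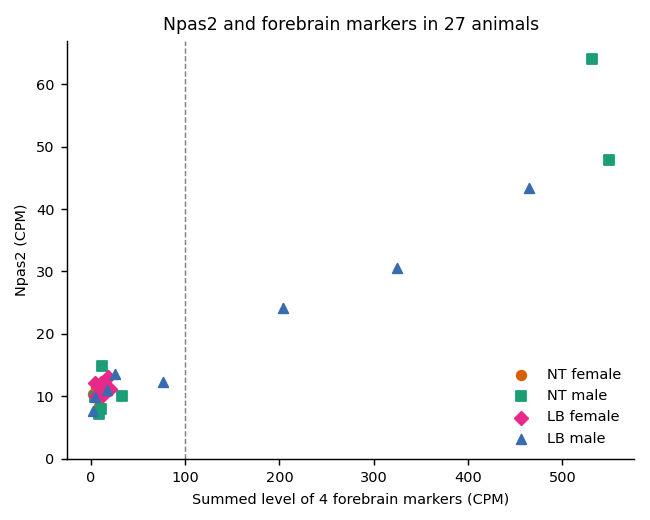
Normalized CPM of Npas2 against the summed CPM of 4 forebrain markers, with 1 point per animal colored by group and a dashed line at a sum of 100 CPM. The 5 animals to the right of the line are males and hold the 5 highest Npas2 values, from 24.1 to 64.1 CPM.

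Markers of the cell types of the cerebellum differed between the sexes over all animals and in NT animals, as did 29.3% and 15.2% of all genes. In bulk tissue, fewer cells of a type and less RNA per cell cannot be told apart. Of 10 granule cell markers, 5 were lower in males over all animals, and their summed level was 7655 to 8358 CPM in NT females and 2391 to 8031 CPM in NT males. In LB animals it was 5223 to 7876 CPM in females and 4178 to 8176 CPM in males. Of 8 Purkinje cell markers 5 were lower in males, and of 10 deep nucleus markers 6 were higher and 1 lower. The deep nucleus list shares Tbr1 with the forebrain list. Of 8 oligodendrocyte markers 6 were higher in males, and all 7 tested meningeal markers were higher. In LB animals 0 of the granule cell, Purkinje cell, deep nucleus and oligodendrocyte markers passed by edgeR (smallest adjusted p = 0.0798), while 3 of the 7 meningeal markers were higher in males. Of all genes, 0.248% passed in LB animals and 0.206% were higher in males. The summed oligodendrocyte level was 7650 to 11771 CPM in NT females and 11438 to 52636 CPM in NT males. No granule, deep nucleus or Purkinje cell marker was at 0 throughout a group.

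With the balance of deep nucleus to granule cell markers as a covariate, 0 of 10 clock genes passed over all animals, where 0.0578% of all genes did. Per1 then had a log2 fold change of -0.56 (adjusted p = 0.116) and Cry2 of -0.28 (edgeR, adjusted p = 0.177), while Arntl was at -0.08 and Per3 at -0.15. With the meningeal score as a covariate, 0 of 10 passed where 0.0248% of all genes did, and Per1 kept an estimate of -0.78 (edgeR, adjusted p = 0.359). Nearly all genes called between the sexes lost their calls under either covariate, and the part of composition in the sex differences of single clock genes was not tested beyond these fits.

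Rearing gave no call among the clock genes. By edgeR 0 of 10 passed for LB against NT over all animals (0.00826% of all genes), in males (0% of all genes) and in females (0.00826%). At an unadjusted p under 0.05 it was also 0 of 10 in each, against 14.9%, 10% and 7.94% of all genes. DESeq2 and limma-voom also called 0 in each. The smallest adjusted p was 0.352, for Per2 over all animals. Per2 was 44.5 to 85.8 CPM in NT females (median 59.3) and 23.8 to 81.3 CPM in LB females (median 56.7). In males it was 27.9 to 62.7 CPM (median 56.8) in NT and 29.8 to 57.8 CPM (median 38.6) in LB animals. The rearings overlapped in both sexes, and the log2 fold change was -0.32 ± 0.16 (SE).

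For the other clock genes the estimates for LB against NT over all animals ran from -0.22 for Per3 to 0.13 for Dbp on the log2 scale. Intervals of 2 SE differed in width between genes. In males that of Cry2 ran from -0.25 to 0.23 and that of Npas2 from -1.11 to 0.55. The interaction of sex and rearing gave 0 of 10 calls by edgeR, where 0% of all genes passed, and 0 of 10 at an unadjusted p under 0.05, where 4.71% of all genes did. DESeq2 and limma-voom also called 0. Its largest estimate apart from Npas2 was that of Nr1d1, 0.27 ± 0.25 (SE).

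The phase relation was examined by correlating Arntl and Npas2 with Per1, Per2, Per3, Nr1d1 and Dbp on log2(CPM + 0.5), 10 pairs in all, with two-sided permutation tests of 100000 resamples adjusted over the 10 pairs. Arntl and Dbp ran in opposite directions. Over the 27 animals Pearson's r was -0.60 (p = 0.00078, adjusted p = 0.0078) and Spearman's rho was -0.65 (p = 0.00035, adjusted p = 0.0035). Without the 2 animals farthest from the median of Arntl (NT male 6112 and LB male 9121) r was -0.72, and it stayed between -0.71 and -0.56 when any 1 animal was left out. With group means removed r was -0.62 (adjusted p = 0.0281). Over the 22 animals left without the 5 males with forebrain RNA it was -0.56 (permutation p = 0.00703), and the adjusted p of 0.0703 missed the threshold.

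Within the groups, the relation of Arntl and Dbp passed after adjustment in LB males, where r was -0.86 (exact permutation p = 0.00144, adjusted over the 30 within-group tests p = 0.0432). LB male 9121 had the highest Arntl of its group, 76.7 CPM, with Dbp at 125 CPM, and LB male 122 had the lowest Arntl, 45.6 CPM, with Dbp at 209 CPM. In LB females r was -0.82 (exact permutation p = 0.0187, adjusted p = 0.256). LB female 5022 had the lowest Arntl of its group, 42.5 CPM, and the highest Dbp, 250 CPM. Without this animal r in LB females was -0.56. In NT males r was 0.23 (exact permutation p = 0.595), and the 5 NT females are too few for a value. The difference between groups was not tested.

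The samples fall into 10 sets by their titles, which are numbers whose leading digits are shared by 2 to 4 animals of the same sex and rearing. The labels do not say what these digits stand for. Much of the opposition lay between these title sets. Over the means of the 10 sets r between Arntl and Dbp was -0.73 (permutation test, adjusted p = 0.055), and with the set means removed it was -0.25 (adjusted p = 0.603). Within title sets the estimate kept its sign but was smaller, and no relation was detectable there.

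The ratio of Dbp to Arntl in CPM separated some title sets of the same group and not others. In LB females it was 2.77 to 5.82 in the set of animals 5021 to 5023 and 1.34 to 1.74 in the set of 8021 to 8024, which did not overlap. In LB males it was 4.24 to 4.67 in animals 7121 and 7122 and 1.62 to 3.05 in animals 9121 to 9123, with animals 121 to 123 between 2.96 and 4.54. In NT females the set of 1011 and 1013 (2.38 to 2.81) overlapped that of 2011 to 2013 (1.42 to 2.51). The NT male sets of 3111 to 3113 (2.18 to 3.66), 4111 and 4113 (3.06 to 4.09) and 6111 and 6112 (3.38 to 3.77) overlapped too. The ratio thus separated no more pairs of sets within a group than the median over all genes, which was 2 of 8 pairs.

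Arntl and the Per genes did not run in opposite directions. Arntl correlated positively with Per1, with r of 0.49 (p = 0.00921, adjusted p = 0.0460) over 27 animals, rho of 0.43 (adjusted p = 0.120) and r of 0.40 without the 2 farthest animals. With group means removed it was 0.29 (permutation test, adjusted p = 0.532), and the call held in 10 of the 27 cases with 1 animal left out. The remaining values of r with Arntl were 0.36 for Per2 (adjusted p = 0.161), 0.23 for Per3 (0.356) and 0.11 for Nr1d1 (permutation test, adjusted p = 0.725). No opposition of Arntl to Nr1d1, its repressor, was detectable in these animals.

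For Npas2 the animals fell into separate clusters, which the pooled values mix. Over all 27 animals r was 0.27 with Dbp, -0.09 with Nr1d1, -0.02 with Per2, -0.26 with Per1 and -0.40 with Per3. None of these passed (permutation tests, adjusted p from 0.119 to 0.916). Over the 22 animals with a forebrain marker sum under 100 CPM, r was -0.38 with Nr1d1 (p = 0.0820, adjusted p = 0.266), -0.30 with Dbp, -0.25 with Per2, -0.08 with Per3 and -0.05 with Per1 (permutation tests, adjusted p from 0.266 to 0.834). Spearman's coefficient ran from -0.27 with Nr1d1 to 0.04 with Per1, with 0.559 as the smallest adjusted p. Without the 2 animals farthest in Npas2, r was -0.41 with Nr1d1, -0.36 with Dbp, -0.16 with Per3, -0.10 with Per2 and -0.09 with Per1. None of the 5 relations of Npas2 passed.

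**Figure D4:**
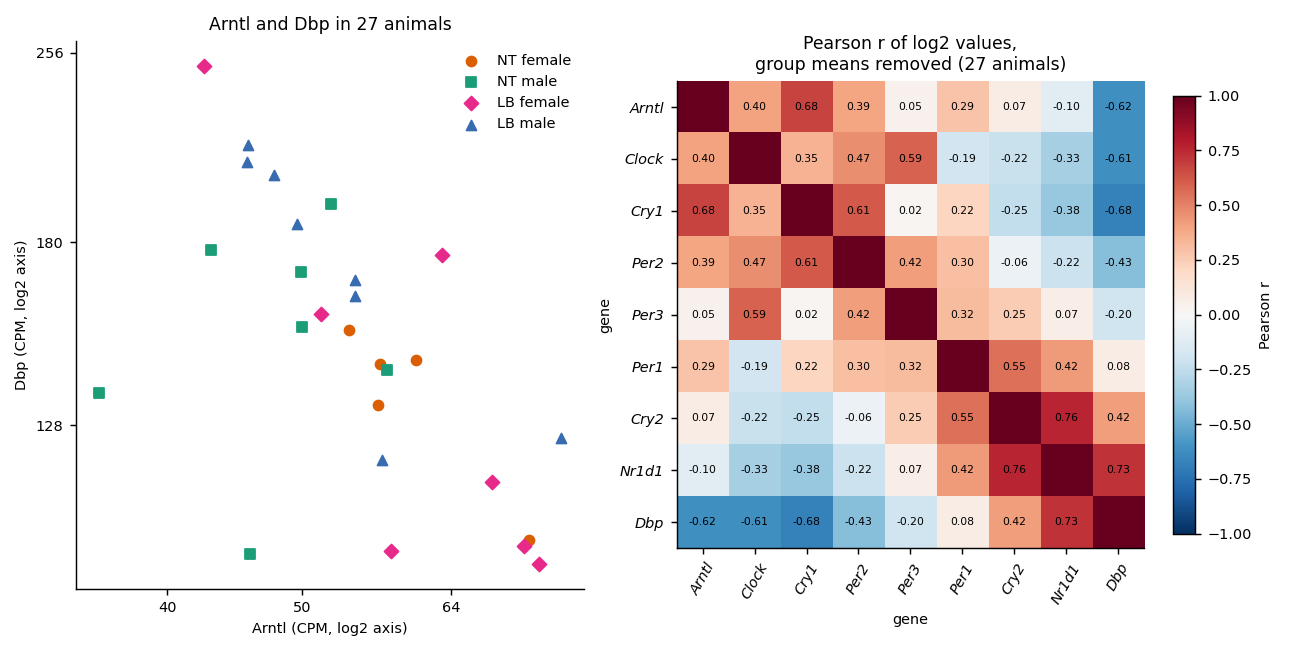
Left, Dbp against Arntl in normalized CPM on log2 axes, with 1 point per animal colored by group. Right, Pearson's r with group means removed for each pair of 9 clock genes (Npas2 left out), where Arntl and Dbp stand at -0.62, Arntl and Cry1 at 0.68 and Nr1d1 and Dbp at 0.73.

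All pairs of clock genes were described with group means removed over the 27 animals and with no test. The most strongly opposed pairs all held Dbp. Arntl went with Cry1 (r = 0.68), whose transcript is known to peak late among the inhibitors, and Dbp went against Cry1 (r = -0.68). Per2 went with Cry1 (r = 0.61). Dbp went with Nr1d1 (r = 0.73), and Nr1d1 with Cry2 (r = 0.76). Nr1d1 and Cry2 did not form a set clearly opposed to Arntl (r = -0.10 and 0.07) or Per2 (-0.22 and -0.06). With Cry1 they stood at -0.38 and -0.25. With title set means removed, the relations of Nr1d1 to Dbp (0.66) and to Cry2 (0.76) kept their size, that of Per1 to Cry2 was 0.81, and those of Cry1 to Arntl (0.28) and Dbp (-0.24) became small.

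Clock ran against Dbp (r = -0.61) and with Per3 (0.59). These 2 values rested largely on the pair of animals with the lowest Clock, without which they were -0.25 and 0.39. All points share the library of each animal, so differences in depth or tissue content between animals enter every pair. Arntl, for example, also followed the Purkinje cell score (r = 0.67) and the granule cell score (r = 0.50). With the balance of deep nucleus to granule cell markers removed besides group means, r of Arntl was -0.66 with Dbp and 0.58 with Cry1. It was 0.24 with Per2 and 0.059 with Per1. The part of tissue content in these correlations was not tested beyond such fits.

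Set against all 12106 other tested genes, Cry1 had the 7th highest r with Arntl and Dbp the 47th lowest. With Dbp, Nr1d1 had the 16th highest r and Cry1 the 27th lowest. The gene most like Dbp among 11443 genes at 1 CPM or more was Ciart (r = 0.81), which encodes a repressor of the CLOCK and ARNTL dimer. Sirt6, a chromatin deacetylase, followed at 0.81, then Xpnpep1 (0.77), Usb1 (0.77) and Apex1 (0.76). The genes that ran most against Dbp were Trmt1l, Mtmr4, Cdc14a, Nars2 and Mob1a, each at -0.77. Those most like Arntl were Cyth3 (0.73), Fam107b (0.72), Syndig1 (0.71) and Ptprj (0.71), and those most opposed were Gsdmd and LOC689959, each at -0.73. Other genes of the clock and its output did not all go the way of Ciart. Tef stood at 0.58 with Dbp and 0.64 with Nr1d1. Nr1d2 stood at -0.38 with Dbp, -0.21 with Nr1d1 and 0.22 with Arntl, and at 0.94 with Clock. These likenesses are over 27 animals with group means removed.

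The title sets also separated the levels of single clock genes. Cry1, a strong inhibitor of the activators, was 31.5 to 35.6 CPM in LB females 5021 to 5023 and 55.7 to 60.8 CPM in LB females 8021 to 8024. In NT females it was 38.2 to 49.3 CPM in animals 1011 and 1013 and 55.7 to 64.2 CPM in animals 2011 to 2013. In NT males it was 41.0 to 67.6 CPM in animals 3111 to 3113, 36.5 to 39.2 in animals 4111 and 4113 and 29.5 to 31.2 in animals 6111 and 6112. In LB males it was 27.2 to 34.8 CPM in animals 121 to 123, 25.3 to 40.6 in animals 7121 and 7122 and 41.4 to 57.9 in animals 9121 to 9123. Of the 8 pairs of sets within a group, 7 did not overlap for Cry1, and only LB males 121 to 123 overlapped with LB males 7121 and 7122. A separation of 7 or more of the 8 pairs occurred in 0.116% of all tested genes, 14 in number, against 1.05% for 6 or more and 4.98% for 5 or more. Per1 reached 5 of the 8 pairs, Per3, Nr1d1 and Dbp 3, Arntl 2, Clock, Npas2 and Cry2 1, and Per2 0, with a median of 2 over all genes.

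The share of the variance within groups that lay between title sets was 76.0% for Cry1, 70.1% for Per1, 63.8% for Dbp and 47.0% for Arntl, against a median of 35.0% over all tested genes. It was lowest for Npas2, at 16%, and Cry2, at 20.1%. The edgeR test of title set within group called 0 of 10 clock genes, where 0.033% of all genes passed. At an unadjusted p under 0.05 it was 3 of 10, against 21.5% of all genes. The smallest adjusted p values were 0.0667 for Cry1, 0.0722 for Per1 and 0.0841 for Dbp. DESeq2 called these 3 genes, with adjusted p of 1.74e-05, 0.000347 and 0.00293, where it called 13.9% of all genes, and limma-voom called 0.

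For Per1, LB males 121 to 123 (27.5 to 33.1 CPM) lay below LB males 7121 and 7122 (53.7 to 62.3 CPM) and 9121 to 9123 (40.2 to 57.4 CPM). For Dbp, LB females 5021 to 5023 (157 to 250 CPM) lay above LB females 8021 to 8024 (98.9 to 115 CPM). LB males 9121 to 9123 (120.1 to 168 CPM) lay below LB males 7121 and 7122 (204 to 216 CPM) for the same gene. Each set holds 1 sex and 1 rearing, so a difference between groups cannot be fully told apart from one between sets. With the title set as a random block in limma-voom, Per1 (log2 -0.82, adjusted p = 0.0156) and Cry2 (-0.39, adjusted p = 0.0342) kept their sex difference over all animals. In NT animals 0 clock genes passed by this fit, where Per1 had an adjusted p of 0.0876 and Cry2 of 0.100.

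**Figure D5:**
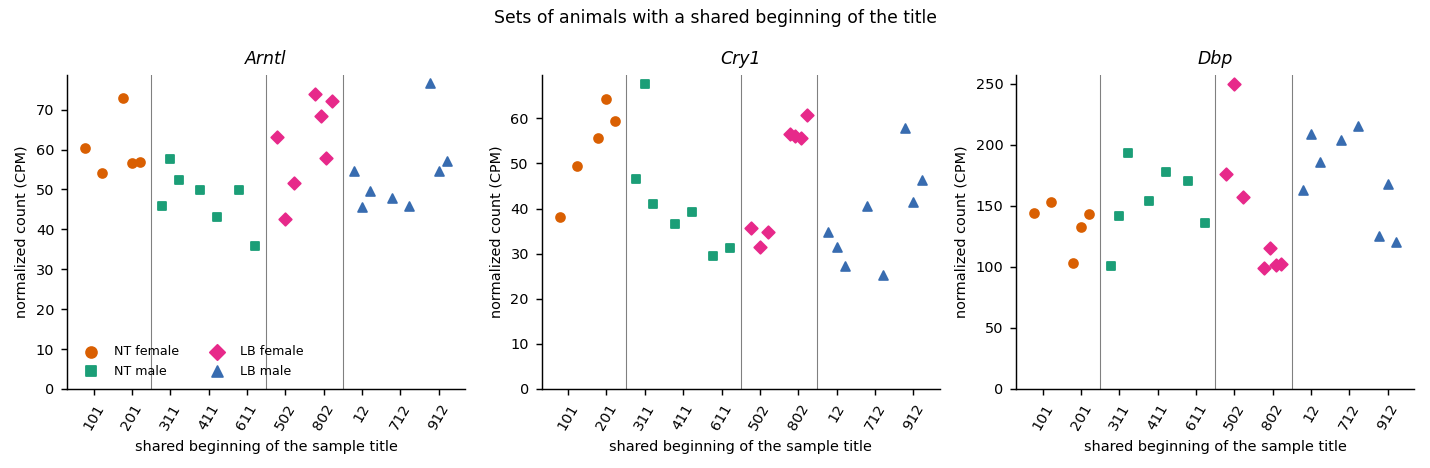
Normalized CPM of Arntl, Cry1 and Dbp by title set (the leading digits shared by its animals), with 1 point per animal and vertical lines between the 4 groups. In LB females, animals 8021 to 8024 lie above animals 5021 to 5023 for Cry1 and below them for Dbp.

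Genes around this loop were followed as lists. Of 8 other tested core clock and output genes (Nr1d2, Rorb, Bhlhe40, Tef, Nfil3, Ciart, Timeless and Usp2), 2 fell in males over all animals, where 29.3% of all tested genes passed and 12.4% were lower. Usp2, a deubiquitinase under clock control, had a log2 fold change of -0.39 ± 0.11 (edgeR, adjusted p = 0.0144), with 51.3 ± 2.55 CPM in NT females and 36.8 ± 10.7 in NT males (SD, n = 5 and 7). Nfil3, a repressor at D-box sequences, had a log2 fold change of -0.35 ± 0.13 (edgeR, adjusted p = 0.0403). In NT and in LB animals alone, and for rearing, 0 of these 8 passed. The shares of all genes were 15.2% in NT animals, 0.248% in LB animals and 0.00826% for rearing over all animals.

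Of 9 tested modifiers of clock proteins, 3 fell in males over all animals, against the same 29.3% of all genes called and 12.4% lower. These were Cipc, an inhibitor of CLOCK (log2 -0.25, edgeR adjusted p = 0.00768), Csnk1e, a kinase of the PER proteins (-0.41, adjusted p = 0.0140), and the kinase gene Gsk3b (-0.64, edgeR, adjusted p = 0.0290). Cipc was the 1 of the 9 that also fell in NT males, where 15.2% of all genes passed, by 0.42 on the log2 scale (edgeR, adjusted p = 0.0131), from 156 ± 11.2 CPM in NT females to 117 ± 16.7 in NT males (SD, n = 5 and 7). In LB animals and for rearing 0 of the 9 passed, where 0.248% of all genes did in LB animals and 0.00826% for rearing over all animals.

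The counts are those of gene models on the rn6 assembly. Of the genes with calls between the sexes, Per1 lies on chromosome 10 at 55687124 to 55696020 (22 exon intervals), Cry2 on chromosome 3 at 81314151 to 81344109 (12), Arntl on chromosome 1 at 178039063 to 178137471 (21), Per3 on chromosome 5 at 168088126 to 168123030 (21) and Npas2 on chromosome 9 at 45901741 to 46081880 (21). Dbp lies on chromosome 1 at 101687896 to 101692845 (5 exon intervals) and Cry1 on chromosome 7 at 24534615 to 24634098 (13). Nr1d1, on chromosome 10 at 86683875 to 86690815 (9 exon intervals), shares 263 exon bases, 10.3% of its length, with Thra on the opposite strand. The strand setting of the counting is not given in the sources used here, so reads there may belong to either gene.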

How the data were processed

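Punches of the cerebellar interpositus from 27 rats were sequenced as messenger RNA. The authors aligned the reads with STAR 2.5.2b to rn6, per the labels, counted them on genes with featureCounts of Subread 1.5.1, and deposited whole-number counts, not normalized, for 17321 genes. The annotation release, strand setting and treatment of multiply mapped reads are not given in the sources used here. Columns were matched to animals by sample title and groups taken from the labels. No pair of animals of the same group had identical counts or differed by less than sampling noise (80 pairs, lowest chi-square per degree of freedom 8.45). The Y-linked Eif2s3y had at least 516 counts in every male and at most 3 in every female. Each title is treated as a separate animal, but litters and cages are not given, so p values measure the spread between these animals, some of which may be related.

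Tests used edgeR 4.0.16 (R 4.3.3), with filterByExpr (minimum count 10, minimum total 15), TMM normalization, and 1 robust quasi-likelihood model of the 4 groups with a prior count of 0.125, with Benjamini-Hochberg adjustment over 12107 genes and a threshold of 0.05. CPM used the TMM library sizes. TPM was computed from the counts and the deposited exon lengths. Intervals are 2 SE. Correlations used a pseudocount of 0.5, with two-sided permutation tests (scipy 1.17.1). Alternatives were DESeq2 1.42.0, limma-voom (limma 3.58.1), other normalizations and filters, only the groups compared, composition and meningeal covariates, the title set as a random block, and leaving out each animal. Fits without the animals with forebrain genes, with a forebrain covariate, and without the pair with the lowest Clock were added after seeing the data. Composition scores are means of log2 marker levels, each centered on its mean over animals, and the composition covariate is the deep nucleus minus the granule cell score. Code was tested on simulated data.

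The clock genes and the gene lists were chosen with earlier results of these data known. Genes outside the lists were named as the 5 with the highest and the 5 with the lowest correlation with Arntl or Dbp, of which some are not reported here. Further lists were compared between the sexes over all animals, where 29.3% of all genes passed. Of these, 11 glucocorticoid-responsive genes gave 1 call (Cdkn1a, higher in males, log2 0.60), 13 immediate early genes gave Egr2 (3.32) and Nr4a3 (-1.15), and 7 temperature-regulated genes gave 0. Egr2 averaged 0.34 CPM in NT and 0.42 in LB females, against 4.78 ± 8.62 in NT and 3.32 ± 4.73 in LB males (SD). In NT animals 1 of the 7 temperature-regulated genes was higher in males, where 15.2% of all genes passed. Over all animals, 8 astrocyte markers gave 3 higher and 1 lower, 8 microglia markers 6 higher, 7 choroid plexus markers 2 higher, and 7 endothelial markers 0.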

Additional observations from a re-analysis of the deposited data

Results flagged for a closer look

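Of the 40 combinations of clock gene and group, 4 held an animal set apart from the rest of its group by Dixon's criterion, where chance alone marks about 1 in 20. LB male 9121 had 76.7 CPM of Arntl, and the next animal of its group had 57.1. LB female 5022 had 37.0 CPM of Clock, and the next had 130. NT male 3113 had 52.9 CPM of Clock, and the next had 116. NT male 4111 had 93.1 CPM of Per3, and the next had 57.4.

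LB female 5022 also had the highest Dbp (250 CPM) and Nr1d1 (249.1 CPM) and the lowest Arntl (42.5 CPM), Per2 (23.8 CPM), Per3 (29.5 CPM) and Cry1 (31.5 CPM) of the LB females.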

How the results depend on the processing

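The number of clock genes called between the sexes over all animals was 5, where 29.3% of all genes passed. With the share of all genes in brackets, it was 3 with upper-quartile normalization (28.9%), without the filter (24.2%) or with at least 10 counts in every animal (28.8%). It was 0 with the composition (0.0578%) or the meningeal covariate (0.0248%), and 2 with the title set as a block (8.45%). It was also 2 without the animals with forebrain genes or with the forebrain covariate, and 9 without the pair with the lowest Clock. Leaving out single animals gave 3 to 9, with 9 without LB female 5022 (42.4%). In NT animals (2) it was 0 with only the groups compared, the composition or meningeal covariate, the block or the forebrain covariate. Single animals left out gave 0 (without NT female 1011, 1013 or 2012 or NT male 3111 or 6112) to 4 (without NT male 4111). In LB animals (0) it was 1 with DESeq2, 3 without the lowest-Clock pair and 0 to 1 without single animals, with Per1 called without NT male 3113 or 6112, LB female 5022 or LB male 7121 or 7122. For title sets (0), DESeq2 called 3 and the forebrain covariate 1. Rearing and interaction gave 0 under every alternative run. The causes were not tested.

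Directions that turned were all of values without a call, apart from Npas2 and Per3 between the sexes over all animals. For all males against all females, Npas2 was -0.015 without the forebrain animals and -0.061 with the forebrain covariate, and with the meningeal covariate Per2 was 0.024 and Per3 0.062. In NT animals Npas2 was -0.037 with the forebrain covariate, and with the composition covariate Per2 was 0.037 and Cry1 0.017. In LB animals Npas2 was -0.070 and -0.085 by the forebrain alternatives, and with the meningeal covariate Per2 was 0.082 and Per3 0.35. For rearing in males, Npas2 was 0.022 with limma-voom, 0.15 with composition, 0.033 with the block, 0.10 without the forebrain animals and 0.0051 without the lowest-Clock pair, and Cry2 in the same order, composition apart, was 0.018, 0.016, 0.11 and 0.050. For rearing in females, Arntl was -0.021 and Dbp -0.0058 with library size alone, Npas2 -0.055 with the meningeal covariate and Dbp -0.11 without the lowest-Clock pair. Leaving out single animals turned values for rearing, with ranges of -0.57 to 0.17 for Npas2, -0.24 to 0.030 for Cry1, -0.085 to 0.050 for Cry2 and -0.25 to 0.077 for Per3 in males, and -0.015 to 0.11 for Arntl, -0.11 to 0.15 for Dbp and -0.12 to 0.023 for Per1 in females.

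The r of Arntl and Dbp was -0.25 with title set means removed, -0.73 over set means and -0.56 without the forebrain animals. That of Arntl and Per1 was 0.43 by rho, 0.29 with group means removed, 0.059 with composition also removed, 0.29 with the meningeal score also removed, 0.32 with set means removed, 0.57 over set means, 0.40 without the 2 farthest animals, 0.48 without the forebrain animals and 0.36 to 0.57 without single animals. Arntl and Per2 reached 0.48 with library size alone (adjusted p = 0.0356, permutation test). Arntl and Per3 was -0.25 with composition removed. Arntl and Nr1d1 was -0.043 by rho, -0.10, -0.32 and -0.11 with group means, composition and the meningeal score removed, -0.037 over set means and -0.054 to 0.21 without single animals. With Npas2 over all 27 animals, the values in the order of group means, composition, meningeal score and set means removed were 0.018, 0.30, 0.021 and 0.50 for Per1, 0.13, 0.39, 0.085 and 0.32 for Per2, and 0.052, 0.22, 0.060 and 0.19 for Nr1d1. Over set means it was -0.85 for Per1 and -0.84 for Per3, for Dbp -0.30 without the forebrain animals, and without single animals -0.094 to 0.064 for Per2 and -0.47 to -0.33 for Per3. At these depths every clock gene had at least 104 counts per animal, with the lowest count in Npas2. The parts of counting error and of the spread between animals were not tested.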
